A study of Mus musculus with 8 samples.

Results

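The subunits of the mitochondrial respiratory chain were compared, complex by complex and genome by genome, between splenic regulatory T (Treg) cells with high and low expression of a Bach2 reporter. The members were the gene models whose symbol begins with Nduf (assembly factors named Ndufaf left out), Uqcr, Cox4 to Cox8 or Atp5, together with Sdha, Sdhb, Sdhc, Sdhd, Cyc1, Cycs and the 13 protein-coding genes of mitochondrial DNA. This gave 104 members among 36811 gene models, 91 encoded in the nucleus and 13 in mitochondrial DNA, after 7 pseudogenes with symbols ending in -ps were left out. The 8 libraries, 4 in each group, were SmartSeq2 RNA-seq libraries of Foxp3-GFP+ Treg cells sorted from the spleen of C57BL/6 mice aged 12 to 13 weeks. Every mouse had the genotype Foxp3EGFP-DTR Bach2tdRFP/+, in which Foxp3 drives a GFP and diphtheria toxin receptor reporter and 1 Bach2 allele carries a red fluorescent reporter. Cells were taken as Bach2-RFP HI or Bach2-RFP LO, and each group has libraries labelled F1, F2 (female), M1 and M2 (male). The labels name no treatment. Whether the libraries of a group came from separate animals is not stated beyond those labels, so the p-values below refer to differences among these libraries only, which may be technical.

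The respiratory chain sits in the inner mitochondrial membrane. Complex I (NADH dehydrogenase) and complex II (succinate dehydrogenase) pass electrons to coenzyme Q, complex III passes them to cytochrome c, and complex IV (cytochrome c oxidase) passes them to oxygen. Complexes I, III and IV pump protons, and complex V (ATP synthase) uses the returning protons to make ATP. Most subunits are encoded by nuclear genes and imported, whereas a few hydrophobic core subunits of complexes I, III, IV and V are encoded in mitochondrial DNA, which is transcribed from both strands as long RNAs that are then cut into individual transcripts. Resting T cells use mainly oxidative phosphorylation, and Bach2 is a transcriptional repressor associated with the resting, lymphoid-homing state of T cells.

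The reporter gene followed the sort. Bach2 was measured at 8.62 to 20.7 FPKM (fragments per kilobase of transcript, scaled for sequencing depth, so that levels of different genes can be compared) in HI and 0.447 to 0.894 in LO. Foxp3, which defines Treg cells, overlapped between the groups (13.3 to 15.2 FPKM in HI, 10.5 to 19.8 in LO). Of 11260 gene models tested with limma on log2(FPKM + 1), 524 (4.65%) were higher and 410 (3.64%) lower in LO at an adjusted p below 0.05. The LO libraries all lay below the HI libraries for 7.18% of the models and all above them for 7.9%. The median log2 difference of all models, LO minus HI, was -0.03. A pair of libraries stood apart. The smallest steps between low FPKM values, a measure of relative depth that also carries any scale factor of the table, were 5.27 times finer in LO M2 than in HI F1. They were coarsest in HI M1, at 0.636 times the fineness of HI F1, with the other libraries at 0.818 to 1.27 times. LO M2 held the lowest value of the 8 libraries for 56 of the 84 tested nuclear members, and HI M1 the highest for 43, so the results below are also given without them. Some genes used as markers of other cell types differed with the sort as well. Which cells expressed them, Treg cells included, was not tested. Of 8 tested B cell markers, 4 were lower in LO, with the list summing to 154 to 265 FPKM in HI and 78.2 to 104 in LO. Of 6 plasmacytoid dendritic cell markers, 3 were lower (summed level 378 to 624 FPKM in HI and 271 to 367 in LO), and 2 of 4 tested plasma cell markers were higher (111 to 143 in HI and 175 to 261 in LO). Of the B cell markers, Pax5 was listed at 0 in every LO library. None of these 3 lists had a marker at 0 in all 8 libraries. The part of such cells in the results below was not tested. In libraries of sorted populations, fewer cells of a type and less RNA per cell cannot be told apart.

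The 2 genomes differed in their separation of the groups. The mitochondrially encoded subunits summed to 12124, 10307, 13323 and 11800 FPKM in HI F1, F2, M1 and M2 and to 6849, 6313, 7287 and 4866 FPKM in the LO libraries in the same order. Every LO sum lay below every HI sum, and the ratio of the group means, LO over HI, was 0.532 (0.597 without HI M1 and LO M2). The nuclear subunits summed to 31860, 31002, 36827 and 29011 FPKM in HI and to 30611, 27284, 31242 and 21772 in LO. These sums overlapped, with a ratio of means of 0.862, and of 0.970 without HI M1 and LO M2.

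Dividing the mitochondrial by the nuclear sum within a library removes any scale that all genes of the library share. This ratio was 0.381, 0.332, 0.362 and 0.407 in HI (mean 0.370 ± 0.031, SD, n = 4) and 0.224, 0.231, 0.233 and 0.224 in LO (0.228 ± 0.0051, SD, n = 4). The lowest HI library lay above the highest LO library, in the female and in the male libraries alike, and the 4 LO values differed among themselves by less than the HI values did. The LO mean was 0.616 of the HI mean, and 0.615 without HI M1 and LO M2. Levels were also set against the summed FPKM of protein-coding nuclear genes, with genes named as cytosolic ribosomal proteins left out. Relative to that sum, the mitochondrial subunits made up 1.56 to 1.84% in HI and 0.738 to 1.10% in LO. The nuclear subunits made up 4.45 to 4.97% in HI and 3.30 to 4.74% in LO, again with overlap. The 2 ribosomal RNAs of mitochondrial DNA, mt-Rnr1 and mt-Rnr2, which are no subunits, summed to 16340 to 37766 FPKM in HI and 9261 to 21551 in LO and overlapped between the groups.

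**Figure D1:**
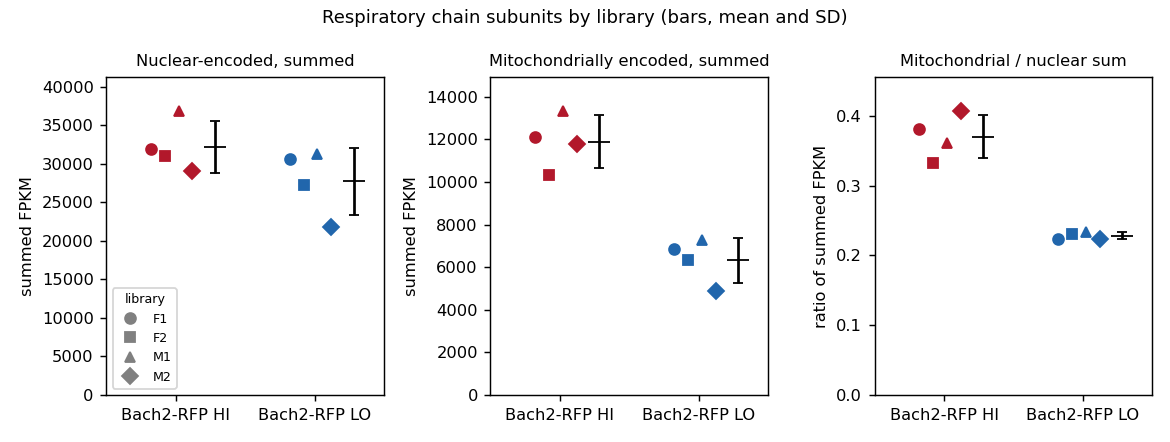
Summed FPKM of the 91 nuclear members (left) and of the 13 mitochondrial members (middle), and the ratio of the second to the first (right), for each library (symbols) with the mean and SD of 4 libraries (bars). The nuclear sums overlap between the groups, whereas every LO library lies below every HI library in the mitochondrial sum and in the ratio.

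Of the 11 mitochondrial members that passed the filter on low values, 7 (63.6%) were lower in LO and 0 were higher (limma, adjusted p below 0.05), against 3.64% lower among all models tested. The call of 1 of the 7, mt-Atp8, rests on few steps above 0, as described below, which leaves 6. The 13 genes fell into a high and a low set. Over the 8 libraries mt-Nd1, mt-Nd2, mt-Nd4, mt-Nd5, mt-Nd6, mt-Cytb and mt-Co1 averaged above 100 FPKM, a split made after the values were seen, and the other 6 were far lower. In each of the 7 high genes every LO library lay below every HI library.

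Complex III has a single mitochondrially encoded subunit, cytochrome b, and its transcript mt-Cytb (ENSMUSG00000064370) had the highest listed FPKM of the 13. Several of the 13 share most of their sequence with nuclear copies, as described below, so their listed levels may not be comparable between genes. The values of mt-Cytb were 4298, 4001, 4597 and 4070 FPKM in HI and 2468, 2222, 2400 and 1769 in LO. The groups were separated by a wide gap, and the log2 difference was -0.95 (SE 0.137, limma adjusted p = 0.00235). The catalytic subunit of complex IV, mt-Co1, which carries the heme and copper centres that reduce oxygen, stood at 2907, 2276, 3250 and 2678 FPKM in HI and at 1684, 1674, 1803 and 1433 in LO. Its log2 difference was -0.75 (SE 0.142, adjusted p = 0.00991), and under quantile normalization, which forces all libraries to 1 distribution, it was -0.25 with adjusted p = 0.209.

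Complex I takes 7 subunits from mitochondrial DNA, all in its membrane arm. The transcript mt-Nd1, whose product lies at the junction with the peripheral arm near the coenzyme Q site, stood at 2077, 1634, 2463 and 2124 FPKM in HI and at 1103, 970, 1173 and 734 in LO. This was the highest listed level of the complex I members in mitochondrial DNA, and the log2 difference of mt-Nd1 was -1.07 (SE 0.181, limma adjusted p = 0.00564). The proton-pumping subunits are homologous antiporter-like proteins encoded by mt-Nd2, mt-Nd4 and mt-Nd5. Of these, mt-Nd2 stood between 595 and 847 FPKM in HI and between 224 and 475 in LO (log2 difference -1.15, adjusted p = 0.0108). For mt-Nd5 the values were 512 to 567 FPKM in HI and 223 to 386 in LO (log2 difference -0.83, adjusted p = 0.0136). The HI values of mt-Nd4 were 663, 674, 682 and 797 FPKM and its LO values 406, 424, 517 and 291 (log2 difference -0.81, adjusted p = 0.0196). Without HI F2 the log2 difference of mt-Nd4 was -0.83 with adjusted p = 0.0501, and without HI M2 it was -0.74 with adjusted p = 0.0562, so its call was lost with the difference about as large.

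The gene mt-Nd6 is the only protein-coding gene on the other strand of mitochondrial DNA. It stood at 721, 552, 838 and 670 FPKM in HI and at 473, 372, 503 and 176 in LO. The groups did not overlap, but LO M2 lay well below the other LO libraries, and with a log2 difference of -0.96 and an SE of 0.306 it did not pass (limma adjusted p = 0.0953). Strandedness of the counting is not given in the sources used here, so reads of mt-Nd6 and of RNA from the opposite strand cannot be told apart. The median log2 difference of the 7 high genes was -0.95, and it was -0.67 without HI M1 and LO M2, when 6 of the 7 were still called.

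The other 6 mitochondrial genes were listed at or near 0 in many libraries. For mt-Co2, the second core subunit of complex IV, the values were 7.41, 7.77, 7.77 and 9.06 FPKM in HI and 15.1, 0, 14.8 and 4.22 in LO. For mt-Co3, the third core subunit, they were 14.3, 12.9, 9.65 and 45.03 in HI and 5.003, 15.0, 4.09 and 8.93 in LO. Subunit a of ATP synthase, mt-Atp6, which forms the proton channel of complex V, was listed at 12.4, 7.81, 3.91 and 15.2 in HI and at 9.12, 6.08, 0 and 3.30 in LO. None of these 3 passed the test (limma adjusted p = 0.742, 0.257 and 0.354), and their groups overlapped. The complex I genes mt-Nd3 and mt-Nd4l failed the filter, with mt-Nd3 above 0 only in HI F1 (8.08 FPKM) and HI F2 (6.35) and mt-Nd4l only in LO M1 (11.9).

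These low genes share their sequence with copies of mitochondrial DNA in the nuclear genome. Each transcript in the GENCODE M21 annotation was divided into all its windows of 50 bases, and a window was counted as shared if it also occurs in the transcript of another gene model. The comparison was made after the levels were seen. All windows of mt-Co2 were shared (100%), as were 99.9% of those of mt-Co3, 99.5% of mt-Atp6, 98.8% of mt-Nd4l and 98.0% of mt-Nd3. Among the 7 high genes the share was 62.2% for mt-Nd4, 51.1% for mt-Co1, 8.19% for mt-Nd2 and 7.61% for mt-Nd5, and it was 0 for mt-Nd1, mt-Nd6 and mt-Cytb. The 5 genes with nearly all windows shared are thus 5 of the 6 low ones. The closest copies of 4 of them, the unprocessed pseudogenes Gm28661, Gm28437, Gm10925 and Gm28438, are not among the 36811 gene models and so have no values. Gm10222, the closest copy of mt-Nd4l, was listed at 0 in every library. How multiply mapped reads were counted is not given in the sources used here, and its part in these levels was not tested.

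The likeness is shown by the start of mt-Co3, whose bases 1 to 783 of 784 are identical to the transcript of Gm28437. The first 60 bases, printed from the GENCODE M21 transcript and the same in both, are given below, all in lower case because no base differs.
mt-Co3 and Gm28437: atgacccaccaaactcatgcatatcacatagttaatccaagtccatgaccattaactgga

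The sixth low gene, mt-Atp8, had 0 shared windows. Only transcripts of annotated gene models were compared, so a nuclear copy without a gene model would not have been counted. The gene mt-Atp8 encodes a short subunit of the membrane part of ATP synthase, and its coding sequence ends inside that of mt-Atp6. The 43 bases that the 2 genes have in common begin with the start codon of mt-Atp6 and are printed here because they cover the end of mt-Atp8.
mt-Atp8 and mt-Atp6 overlap: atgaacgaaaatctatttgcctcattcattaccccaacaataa
The gene was listed at 111, 29.0, 58.0 and 45.1 FPKM in HI and at 0 in each of the 4 LO libraries. Its test passed (limma adjusted p = 7.46e-05), yet the HI values stand as 3, 1, 1 and 1 of the smallest step that the table shows for this gene. In the LO libraries 3 such steps would be 135, 135, 111 and 21.0 FPKM, so the levels of HI F2, M1 and M2 would have been 3 steps or more only in LO M2, and that of HI F1 in LO M1 and LO M2. A difference from most HI levels was not detectable at this depth in LO F1, F2 and M1.

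**Figure D2:**
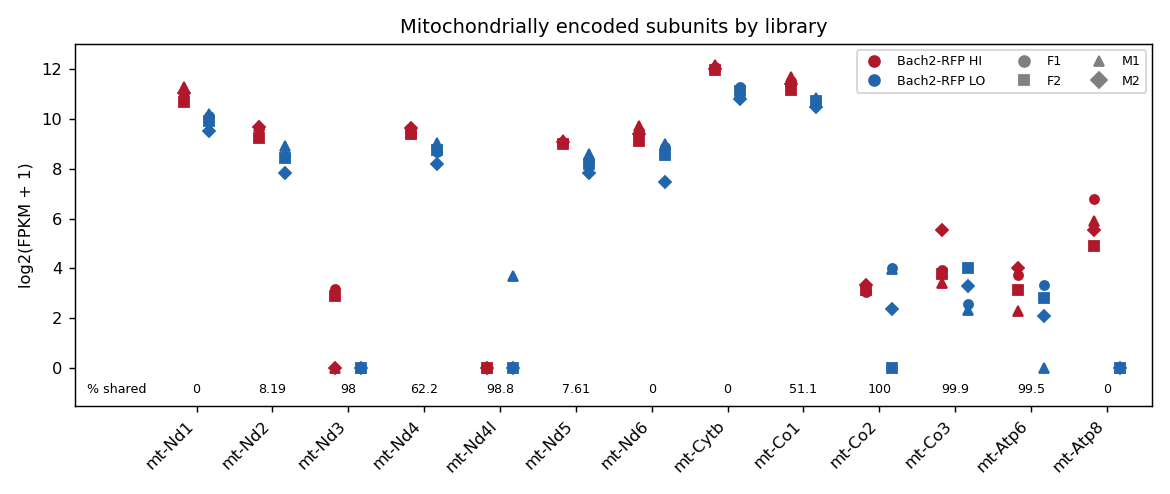
Level of each of the 13 mitochondrially encoded subunits, as log2(FPKM + 1), in the HI (red) and LO (blue) libraries, with the percent of 50-base windows shared with another gene model printed under each gene. In the 7 genes above 100 FPKM the LO points lie below the HI points, and 5 of the other 6 share 98.0% or more of their windows.

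Of the 84 nuclear members tested, 3 (3.57%) were lower and 0 higher in LO, beside 3.64% lower and 4.65% higher among all models. The share of lower calls is therefore near the background. For 7 nuclear members the highest LO library was under the lowest HI library (8.33%, background 7.18%), and for 0 the order was the opposite (background 7.9%). These 7 were Ndufa5, Ndufb4, Cyc1, Cox6a2, Cox7a2l, Atp5c1 and Atp5f1. The log2 difference was negative for 69 of the 84, beside 5859 of all 11260 models. The median of the 84 was -0.23, of the size of the spread between libraries (SD 0.237 of the library medians). The median was -0.13 without LO M2 and -0.06 without both HI M1 and LO M2, with 1 member still called. At an unadjusted p below 0.05, 14 nuclear members (16.7%) were lower and 0 higher, beside 10.3% lower and 10.6% higher among all models.

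By complex, the median log2 difference of the nuclear members was -0.23 for complex I (39 tested), 0.06 for complex II (4), -0.33 for complex III (9), -0.11 for complex IV (14) and -0.36 for complex V (17). Without HI M1 and LO M2 these medians were -0.12, 0.14, -0.04, 0.08 and -0.09. The order of the complexes thus did not hold when those libraries were left out, and complex IV changed its sign.

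**Figure D3:**
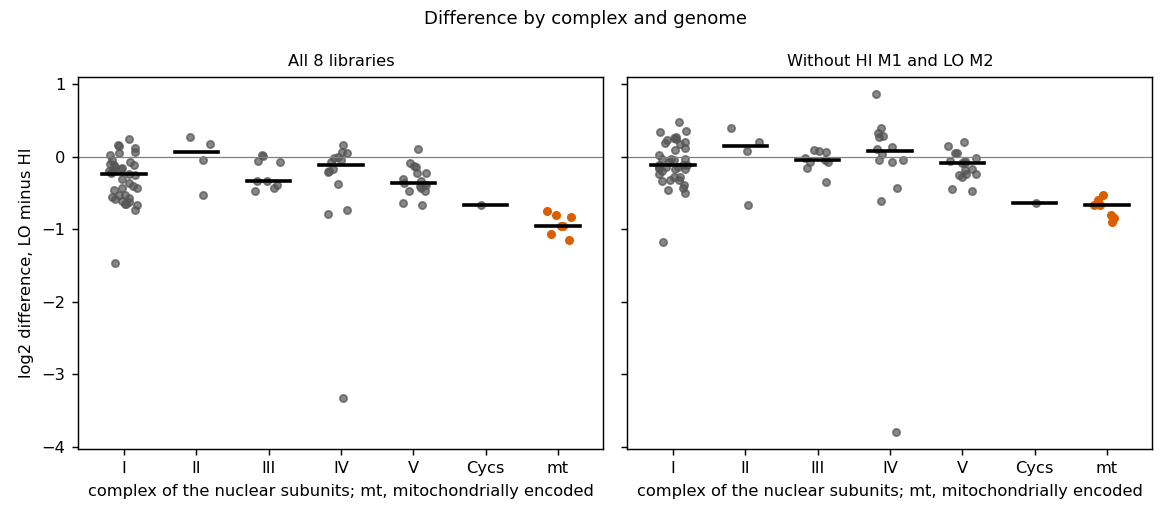
Log2 difference, LO minus HI, of each tested nuclear subunit by complex (grey), of Cycs, and of the 7 mitochondrial subunits above 100 FPKM (orange), with medians as bars, for all 8 libraries (left) and without HI M1 and LO M2 (right). The nuclear medians of complexes I, III, IV and V lie nearer 0 on the right, and that of complex II lies further from 0. The mitochondrial median on the right is -0.67.

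Among the nuclear subunits of complex I, Ndufb4 (ENSMUSG00000022820) passed. It encodes an accessory subunit of the membrane arm. Its values were 114, 141, 249 and 121 FPKM in HI and 77.3, 32.4, 66.2 and 47.4 in LO, without overlap. The log2 difference was -1.47 (SE 0.319, limma adjusted p = 0.0192), and without LO M2 it was nearly as large, at -1.42, but did not pass (adjusted p = 0.0515). Of its windows 37.0% occur in the processed pseudogene Ndufb4c, itself a member by its symbol, which was listed at 0 in every library.

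The next members of complex I by p-value were Ndufa7, Ndufb6 and Ndufv1. Ndufa7, an accessory subunit, stood at 535 to 741 FPKM in HI and 296 to 535 in LO (log2 difference -0.62, adjusted p = 0.0797), and the highest LO library reached just above the lowest HI library. The accessory subunit Ndufb6 was tight in HI, at 163 to 177 FPKM, and spread from 78.6 to 164 in LO (log2 difference -0.66, adjusted p = 0.0936). LO M1 was the one LO library within the HI range, and without it the adjusted p of Ndufb6 was 0.0148 and that of Ndufa7 0.0456. Of the windows of Ndufb6, 31.6% also lie in transcripts of the protein-coding gene Smim27. The core subunit Ndufv1, which binds NADH and the flavin through which electrons enter, stood at 193 to 241 FPKM in HI and 121 to 198 in LO (log2 difference -0.57, adjusted p = 0.113).

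The core subunits of complex I, which carry the flavin and iron-sulfur clusters, did not stand apart from its accessory subunits. The 7 nuclear core subunits had a median log2 difference of -0.23 and the 32 other tested members one of -0.34, and without LO M2 the order turned, at -0.21 and -0.16. The highest nuclear member of complex I was Ndufa3, at 1292 ± 213 FPKM in HI and 944 ± 347 in LO (SD, n = 4), and the lowest tested was Ndufa11b, listed at 0 in 4 libraries and at most at 16.1 FPKM, in LO M1. Ndufa11b, Ndufb4c, Ndufs6b and Cox6c2, 4 of the 91 nuclear members, are processed pseudogenes in the annotation.

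Complex II, the enzyme shared with the citric acid cycle, is encoded wholly in the nucleus. Its flavoprotein Sdha stood at 738, 753, 829 and 745 FPKM in HI and at 380, 602, 454 and 753 in LO. LO M2 lay within the HI range and the other 3 LO libraries below it (log2 difference -0.53, adjusted p = 0.158), and without LO M2 Sdha passed (log2 difference -0.70, adjusted p = 0.0367). The iron-sulfur subunit Sdhb stood at 279 to 326 FPKM in HI and 313 to 372 in LO (limma adjusted p = 0.475). The membrane anchors Sdhc and Sdhd overlapped between the groups too, with Sdhd at 109 ± 12.5 FPKM in HI and 132 ± 19.1 in LO (SD, n = 4, adjusted p = 0.377).

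In complex III none of 9 nuclear members passed. Cytochrome c1, Cyc1, which hands electrons to cytochrome c, stood at 171, 183, 221 and 175 FPKM in HI and at 150, 140, 126 and 157 in LO. Its groups did not overlap (log2 difference -0.38, SE 0.143, adjusted p = 0.155). The hinge protein Uqcrh, the highest of the complex, stood at 688 to 1258 FPKM in HI and 475 to 763 in LO (limma adjusted p = 0.256), and the small subunit Uqcrq at 520 to 803 and 253.5 to 605 (adjusted p = 0.422). The Rieske iron-sulfur protein Uqcrfs1 was the lowest, at 127 ± 24.9 FPKM in HI and 121 ± 9.05 in LO (SD, n = 4). Both core proteins had log2 differences near 0, at 0.02 for Uqcrc1 and 0.03 for Uqcrc2. The mobile carrier Cycs stood at 70.4, 59.9, 50.6 and 50.1 FPKM in HI and at 53.8, 32.2, 32.0 and 29.9 in LO. Only LO F1 reached into the HI range, and Cycs did not pass (log2 difference -0.66, SE 0.227, adjusted p = 0.122), although it did without that library (adjusted p = 0.0363).

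Of the 14 tested nuclear members of complex IV, 2 were lower in LO (14.3%, beside 3.64% of all models). Without HI M1 and LO M2, 1 was. Cox7a2l (ENSMUSG00000024248), a relative of the Cox7a subunits that takes part in joining complexes III and IV into supercomplexes and of which C57BL/6 mice carry a shortened form, stood at 208, 181, 231 and 163 FPKM in HI. In LO it stood at 121, 118, 118 and 109, a narrower range wholly below HI. The log2 difference was -0.73 (SE 0.147, limma adjusted p = 0.0133), and without HI M1 and LO M2 it was -0.61 with adjusted p = 0.0597. Of its windows 17.8% occur in the processed pseudogene Gm6969, which averaged 42.7 FPKM in HI and 10.8 in LO, so the share of each in the reads is uncertain.

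Cox6a2 (ENSMUSG00000030785) is known as the heart and skeletal muscle isoform of subunit 6a. It was listed at 20.9, 6.16, 12.3 and 16.0 FPKM in HI, and in LO at 0 in F1, F2 and M1 and at 2.48 in M2 (log2 difference -3.33, SE 0.518, limma adjusted p = 0.00354). The HI values stand as 8, 3, 3 and 5 of the smallest step for this gene, and the value of LO M2 as 5. In LO M2, the library with the finest steps, 3 steps would be 1.49 FPKM, and in the other LO libraries 7.83 to 9.58, so HI F2 would not have been 3 steps there. Of the plasmacytoid dendritic cell markers, Siglech stood between 7.14 and 44.6 FPKM in HI and between 0 and 1.40 in LO. Klk1 stood between 11.1 and 35.4 FPKM in HI and between 0 and 2.68 in LO. In both of these markers and in Cox6a2, HI F1 was the highest library and HI F2 the lowest. Siglech and Klk1 were picked from a list of 6 markers, and the order of the libraries in the others is not given here. The part of plasmacytoid dendritic cells in the level of Cox6a2 was not tested.

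**Figure D4:**
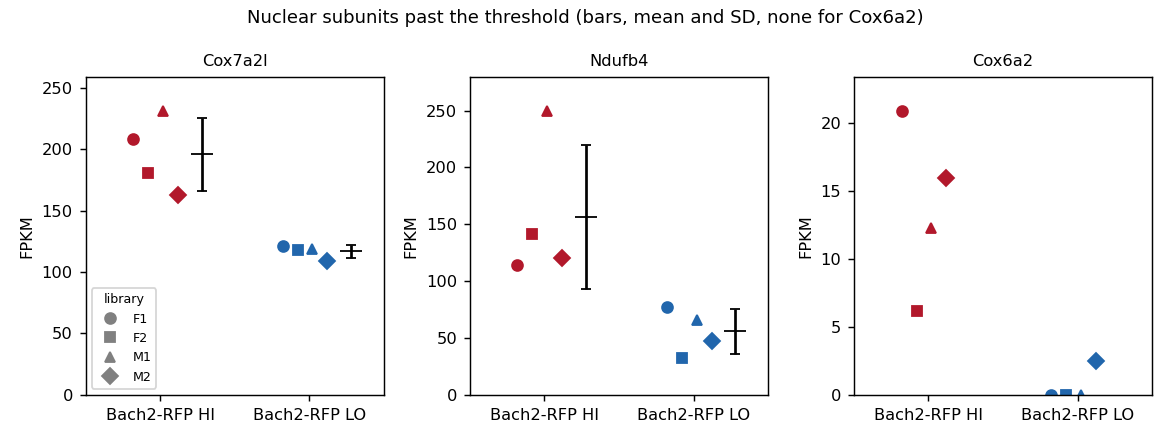
FPKM of the 3 nuclear subunits that passed the test, Cox7a2l, Ndufb4 and Cox6a2, in each library (symbols), with the mean and SD of 4 libraries for the first 2. In each gene every LO library lies below every HI library, and Cox6a2 is at 0 in 3 LO libraries.

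The other isoforms of complex IV were the forms found in most tissues. Cox4i1 was the highest nuclear member of the complex, at 1705 ± 146 FPKM in HI and 1527 ± 177 in LO (SD, n = 4, adjusted p = 0.543), and its counterpart Cox4i2, known from the lung and from low oxygen, was listed at 0 in all libraries. Cox6a1, the general form of subunit 6a, stood at 611 ± 30.3 FPKM in HI and 548 ± 167 in LO, far above Cox6a2. Cox6b1 stood at 979 ± 108 and 948 ± 196 FPKM, while the testis form Cox6b2 reached at most 5.36. Cox8a stood at 435 ± 39.1 FPKM in HI and 479 ± 163 in LO, whereas Cox8b and Cox8c were listed at 0 throughout. The muscle form Cox7a1 failed the filter, listed at 5.74 FPKM in HI F2 and 8.93 in HI M2 and at 0 elsewhere, and Cox7b2 was listed at 0. Cox7a2 stood at 164 to 231 FPKM in HI and 94.1 to 220 in LO (limma adjusted p = 0.477), and Cox7c at 101 to 183 and 47.3 to 154 (adjusted p = 0.302). Ndufa4, named for complex I but since assigned to complex IV, stood at 627 ± 144 FPKM in HI and 583 ± 209 in LO, and Ndufa4l2 was listed at 0.

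In complex V 16 of 17 members had a negative log2 difference, beside 5859 of 11260 models, and none passed. Without HI M1 and LO M2 the difference was negative for 13 of the 17. The c ring, which turns as protons pass, is encoded by 3 nuclear genes for 1 mature protein. Of these, Atp5g1 stood at 206, 214, 208 and 148 FPKM in HI and at 159, 114, 133 and 94.5 in LO, where only HI M2 and LO F1 overlapped (log2 difference -0.64, SE 0.195, adjusted p = 0.0841). Atp5g2 stood at 168 to 290 FPKM in HI and 111 to 179 in LO (log2 difference -0.67, adjusted p = 0.124), and Atp5g3 at 330 ± 89.1 and 304 ± 52.0 (SD, n = 4, adjusted p = 0.869). The stalk subunit b, Atp5f1, stood at 208 to 248 FPKM in HI and 175 to 194 in LO, without overlap (log2 difference -0.30, SE 0.122, adjusted p = 0.190).

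The catalytic F1 part of complex V showed smaller differences than its membrane and stalk parts in the full set of libraries. Its 5 members had a median of -0.13, from -0.46 for Atp5e to 0.11 for Atp5a1, and the 11 members of the membrane part and stalk one of -0.39, all negative. Without LO M2 these medians were -0.20 and -0.18, so the difference between the parts was not present there. Atp5b, the catalytic beta subunit, was the highest nuclear member of all, at 2116 ± 170 FPKM in HI and 1947 ± 294 in LO (SD, n = 4, adjusted p = 0.659). The gamma subunit Atp5c1, the shaft of the motor, stood at 436 to 492 FPKM in HI and 378 to 423 in LO, without overlap (log2 difference -0.22, adjusted p = 0.312). Atp5s, a coupling factor homologue, was the lowest at 0.73 to 3.41 FPKM.

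Deviations of single libraries from the mean of the other libraries of their group differed with transcript length. Length here is the median over the annotated protein-coding transcripts of a gene, so it can differ from that of the main transcript. Uqcrc1, for example, stands at 533 bases, yet its transcripts hold 1867 different windows of 50 bases. By this measure most nuclear members are short, and the 78 with a known length and a mean above 10 FPKM had a median of 693.5 bases. In median log2 deviation, LO M2 stood at -0.71 for nuclear members under 1000 bases, at -0.10 for those of 1000 to 2000 bases and at -0.42 for those over 2000 bases, and at -0.15 for all models under 1000 bases. HI M1 stood at 0.37, 0.16 and 0.024 for nuclear members of the 3 length classes, and LO M1 at 0.34, -0.15 and -0.015. For LO F1 the values were 0.35, 0.073 and 0.56. LO M2 is among the libraries that LO F1 and LO M1 were set against. The 61 tested nuclear members under 1000 bases had a median log2 difference of -0.33, against -0.09 for the 1999 models of that length, and without HI M1 and LO M2 the medians were -0.05 and -0.01. The 16 members of 1000 to 2000 bases had a median of -0.09, and the 4 over 2000 bases one of -0.64 (-0.31 without HI M1 and LO M2), larger than that of the short members. Across the 78 members, which share libraries and are not independent, Spearman's rho between length and log2 difference was 0.20 with all libraries and -0.07 without LO M2.

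**Figure D5:**
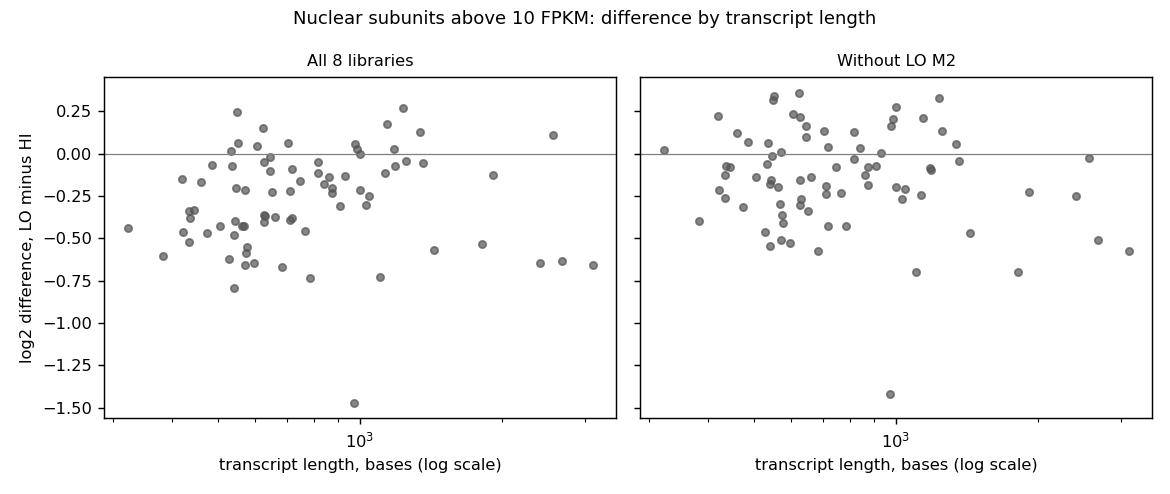
Log2 difference, LO minus HI, of the nuclear members above 10 FPKM against transcript length in bases (log scale), with all 8 libraries (left) and without LO M2 (right). Length is the median over the annotated protein-coding transcripts of a gene. Short transcripts lie mostly below 0 on the left and on both sides of 0 on the right.

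The promoters of nuclear members often hold letters that match the cores of known respiratory gene regulators. In 300-base windows from RefSeq (GRCm38.p6, 250 bases before to 50 after the start), found for 70 nuclear members, both strands were searched for 3 motifs, counted separately, so that matches of different motifs may overlap. The core GCGCANGCG of NRF1, a factor known for driving respiratory genes, occurred in 21 of the 70 (30%) and in 7.03% of all 27025 genes with a window. The core AANATGGCG of YY1 occurred in 10 (14.3%, all genes 2.76%) and the core CCGGAAGT of Ets factors, which include GABP, in 5 (7.14%, all genes 4.31%). A window was found for 2 of the 3 nuclear members that passed, and both are printed from 5′ to 3′ along the gene, with matches to a core in capitals, to show how unlike they are. The window of Ndufb4 (chr16:37654319-37654618, minus strand) has 3 NRF1 cores, starting at its bases 60, 172 and 229, and that of Cox7a2l (chr17:83514284-83514583, minus strand) holds none of the 3 motifs.
Ndufb4: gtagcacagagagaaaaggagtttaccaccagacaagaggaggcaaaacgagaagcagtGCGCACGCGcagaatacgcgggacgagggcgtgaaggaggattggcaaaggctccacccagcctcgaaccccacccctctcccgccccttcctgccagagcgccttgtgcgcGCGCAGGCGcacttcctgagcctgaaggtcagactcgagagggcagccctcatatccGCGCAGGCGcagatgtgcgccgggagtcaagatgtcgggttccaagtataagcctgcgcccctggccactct
Cox7a2l: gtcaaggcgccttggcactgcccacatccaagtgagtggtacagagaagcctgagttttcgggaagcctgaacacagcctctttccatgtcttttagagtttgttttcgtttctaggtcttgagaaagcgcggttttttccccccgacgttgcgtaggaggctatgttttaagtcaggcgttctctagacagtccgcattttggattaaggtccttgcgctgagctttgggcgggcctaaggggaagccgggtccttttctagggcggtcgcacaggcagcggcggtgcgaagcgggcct

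The genes that build and supply the chain showed few calls. Of the assembly factors, 0 of 17 tested for complex I, 0 of 9 for complexes II and III, 0 of 24 for complex IV and 0 of 5 for complex V passed, with medians of -0.12, -0.43, -0.26 and -0.44. The complex I assembly factor Ndufaf4 stood at 10.9 to 31.9 FPKM in HI and 6.04 to 10.2 in LO, without overlap, and did not pass (log2 difference -1.13, adjusted p = 0.0903). Of 36 tested genes that copy mitochondrial DNA and make, process or translate its RNA, 0 passed, with 26 negative and a median of -0.23. The 2 with the smallest p were Ptcd3, a mitochondrial ribosome-associated protein (12.9 ± 3.82 FPKM in LO against 20.8 ± 4.30 in HI, SD, n = 4, adjusted p = 0.191), and Hsd17b10, a subunit of the mitochondrial RNase P (105 ± 16.0 against 139 ± 21.9, adjusted p = 0.211). The summed level of that list was 1227 to 1361 FPKM in HI and 945 to 1107 in LO, without overlap. The sums of the other lists of genes that build and supply the chain overlapped, and a sum weighs its highest genes most.

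Of 77 mitochondrial ribosomal proteins 1 was lower, Mrpl30, at 169 to 278 FPKM in HI and 81.6 to 129 in LO (log2 difference -0.90, adjusted p = 0.0243), and the median was -0.18. Of 16 tested regulators of mitochondrial biogenesis and oxygen use, 1 was lower and 1 higher. Myc, which drives growth and mitochondrial biogenesis, stood at 86.4 to 135 FPKM in HI and 25.7 to 35.1 in LO (log2 difference -1.86, adjusted p = 0.000485). Hif1a, the oxygen-responsive factor that favours glycolysis, stood at 45.9 to 71.1 FPKM in HI and 98.4 to 151 in LO (log2 difference 1.07, adjusted p = 0.00804). Of 19 tested carriers, pores and inner membrane scaffolds, 2 were lower, the prohibitin Phb (86.0 ± 21.2 FPKM in LO against 167 ± 31.1 in HI) and the chaperonin Hspe1 (67.1 ± 15.8 against 117 ± 17.6, SD, n = 4). These calls were sensitive to the setting: of 21 alternatives, Hspe1 lost its call under 11, Phb under 8 and Mrpl30 under 7, while their log2 differences stayed negative. Without HI M1 these were -0.81, -0.92 and -0.76, with adjusted p of 0.067, 0.064 and 0.0552. For coenzyme Q synthesis 0 of 13 passed, and the median was 0.26, the only one of these lists above 0.1.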

How the data were processed

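RNA was measured in 8 SmartSeq2 libraries of sorted Treg cells. Per the submitters' processing notes, the authors used FastQC, cutadapt and HISAT2 with builds NCBIM37 and mm9. The deposited values are FPKM per gene, which the table's name credits to Cuffnorm. Versions, scaling, annotation and strand setting: not given in the sources used here. Total depth is unknown. No mm9 coordinates were used.

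Symbols came from GENCODE M21, which matched 31840 of 36811 identifiers. The members and gene lists were chosen with earlier results of these data known. The 11260 gene models that reached 1 FPKM in 4 or more libraries entered a limma fit (3.58.1, R 4.3.3) of log2 values with a pseudocount of 1. Variances were moderated by eBayes along a trend, p-values were adjusted by Benjamini-Hochberg over all models tested, and the threshold was 0.05. Fold changes on this scale understate low genes. The script was tested on simulated data. Genes named were the 13 mitochondrial genes, nuclear members that passed, the 3 next by p and the highest and lowest per complex, tissue isoforms, and from each list up to 4 that passed or else the 2 with the smallest p; Ndufa5, Atp5c1, Atp5g3, Atp5e, Atp5a1, Uqcrc1 and Uqcrc2 were added after their values were seen, as were the splits at 100 and 10 FPKM. Relative depth is the most frequent ratio of the HI F1 value to that of a library, among models below 2 FPKM in every library. This ratio reflects the smallest FPKM steps and may include a scale factor of the table. Separately, the values of low members were read as whole multiples of 1 step, within 3%. Alternatives were 21, among them other scalings, filters, the sex and label terms and left-out libraries. Marker lists not described in the report were myeloid (2 of 8 lower), CD8 T and NK cell (1 of 4 lower), erythroid (0 of 5) and Treg and CD4 T cell (2 of 9 higher, 1 lower). Of the markers of other cell types, Pax5, Siglech and Klk1 were named outside the rule for named genes.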

Additional observations from a re-analysis of the deposited data

Results flagged for a closer look

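In a group of 4 libraries, 10 values stood apart from the other 3 by a gap that, over the range of the group, was above Dixon's critical value for 95% confidence, among 120 groups of named members and summed levels. Chance flags about 1 in 20 groups. In HI M2, mt-Nd4 was at 797 FPKM, where the other HI libraries were at 663 to 682, mt-Co3 was at 45.03 FPKM, where the others were at 9.65 to 14.3, and Atp5g1 was at 148 FPKM, where the others were at 206 to 214. Also in HI M2, Atp5b was at 2370 FPKM, where the other HI libraries were at 2013 to 2053, and Uqcrc1 at 425 FPKM, where they were at 386 to 392. Sdha was at 829 FPKM in HI M1 and at 738 to 753 in the other HI libraries. Cox6a2 was at 2.48 FPKM in LO M2 and listed at 0 in the other LO libraries. In LO M1, Ndufa11b was at 16.1 FPKM and in the other LO libraries at 0 to 2.02, and in LO F1, Cycs was at 53.8 FPKM and in the others at 29.9 to 32.2. Relative to the protein-coding sum without cytosolic ribosomal proteins, the mitochondrial members made up 1.56% in HI F2 and 1.80 to 1.84% in the other HI libraries.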

How the results depend on the processing

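Under 21 alternatives, 65 named genes gave 1361 comparisons with the reported log2 differences, of which 1246 kept their direction and side of the threshold, 57 lost the call, 8 gained it and 50 turned. None of the genes that turned was called. The count of nuclear members lower in LO, 3 in the reported fit, was 7 with the F1, F2, M1 and M2 labels as a replicate block, 1 without HI M1 and LO M2, and 0 in the female libraries alone and in the male libraries alone; leaving out each library in turn gave 3 to 5. The count of mitochondrial members lower, 7 in the reported fit, was 0 in the female and 1 in the male libraries alone, fits with 2 libraries in each group, and 6 with the block. Whether equal labels mark a pair is not stated, and correlations this small cannot settle it. Same-label libraries correlated at 0.0522, 0.0149, 0.0699 and 0.113 in their deviations from the group means, all above 0. Libraries of different labels correlated at -0.0995 to 0.0583. HI F2 and LO F2 each correlated better with another label than with their own, and the other libraries correlated best with their own. With the block, Ndufa7, Atp5g2 and Cox14 gained a call and mt-Nd4 and Phb lost theirs. The median of the 7 mitochondrial genes above 100 FPKM, -0.95, was -0.67 without HI M1 and LO M2 and ranged from -1.003 to -0.69 with each library left out. Their direction held in each of the alternatives in which it was computed. The nuclear median ranged from -0.32 to -0.13 with each library left out. The causes of these changes were not tested. Without counts, depth limits the members below about 10 FPKM most.

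The log2 differences that turned were mostly close to 0. Under quantile normalization Cox4i1 was at 0.32, Atp5b at 0.33, Cox6b1 at 0.12 and Cox6b2 at -0.054. Without HI M1 and LO M2, Ndufa11b was at -0.32, Uqcrfs1 at 0.078, Sdhc at 0.085, Cox6a1 at 0.040, Cox6b1 at 0.14, Ndufa4 at 0.27, Atp5g3 at 0.15, Atp5a1 at -0.055, Uqcrc1 at -0.067 and Uqcrc2 at -0.041. In the female libraries alone Ndufa11b was at -2.52, Uqcrfs1 at 0.055, Atp5s at 0.23, Sdhc at 0.12, Cox6b1 at 0.071, Ndufa4 at 0.087 and Uqcrc2 at -0.22, and in the male libraries alone Cox6b2 was at -0.97, Cox8a at -0.24 and Uqcrc1 at -0.034. With each library left out, mt-Co2 ranged from -1.04 to 0.29, Ndufa11b from -0.73 to 0.64, Uqcrfs1 from -0.16 to 0.063, Cox6b2 from -0.24 to 0.65, Sdhc from -0.21 to 0.13, Cox6a1 from -0.35 to 0.011, Cox6b1 from -0.15 to 0.066, Cox8a from -0.10 to 0.34, Ndufa4 from -0.34 to 0.12, Atp5g3 from -0.28 to 0.042, Atp5a1 from -0.027 to 0.24, Uqcrc1 from -0.059 to 0.099 and Uqcrc2 from -0.11 to 0.14.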

Other observations

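The relative depths of the 8 libraries, as given by the smallest steps of low genes, were ratios of small whole numbers. Multiplied by 11, they were 11, 14, 7 and 9 for HI F1, F2, M1 and M2 and 9, 9, 11 and 58 for LO F1, F2, M1 and M2, each within 2.2e-05 of a whole number. How much of them is read depth and how much a scale factor of the table was not tested. The number of gene models above 0 was 14191 in LO M2 and 11698 to 12477 in the other libraries.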
